A study of Homo sapiens with 3 samples.

Results

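PTPRQ, which encodes protein tyrosine phosphatase receptor type Q, was examined as 1 gene (ENSG00000139304) of the 36601 genes measured, together with the 52 of 215590 chromatin peaks that lie within 250 kb of it. Its values were read in 8913 cells, defined as barcodes with no fewer than 1000 unique molecular identifiers (UMIs, counted RNA molecules) and 1000 peak counts, and with a mitochondrial share of UMIs of 20% or less. The deposited feature list places the gene at chr12:80435083-80444235 (GRCh38), an interval that spans its annotated starts, and its end equals the RefSeq start of the gene on the plus strand. The gene itself is 236 kb long in RefSeq. Cells were grouped by their own PTPRQ UMIs, so the levels of PTPRQ in those groups describe the grouping and are not a result. The other genes and the peaks did not enter the grouping.

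PTPRQ is a receptor-type phosphatase with a large extracellular part made of fibronectin type III repeats, a single membrane span and 1 cytoplasmic phosphatase domain. Unlike most of its family it acts mainly on phosphoinositides, the membrane lipids that PI3-kinase phosphorylates, rather than on phosphotyrosine. It is best known from the inner ear, where it belongs to the shaft connectors that link the stereocilia of hair cells, and loss of it causes recessive deafness. It was first found in kidney mesangial cells of the rat, and it is not a standard marker of mesothelium.

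The cells came from 1 pool that mixed NCI-H226, a human mesothelioma line without functional NF2, and NCI-H226_CL3, a derivative of it that resists the TEAD inhibitor GNE7883. CL3 had been selected with rising inhibitor concentrations from 0.25 to 3 µM and is 1 clone, so it stands for no other resistant line. Cells of CL3 and of the parental line, each given GNE7883 or DMSO, were marked by 4 hashtag antibodies, then mixed, permeabilised and processed as 1 in the 10x Genomics Multiome assay, which reads RNA and accessible chromatin from the same cell. The matrix names no hashtag among its features, so no cell could be placed in a line or a treatment, no condition was compared, and nothing below is an effect of GNE7883 or of resistance. All cells form 1 sample without replicates, cells are not replicates, and no test between groups of cells was possible. Intervals are exact 95% intervals and cover counting error only.

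Both libraries share 1 list of 651860 barcodes, with 54494965 UMIs and 117898281 peak counts in all. Of the 11130 barcodes past both count minimums, 2217 were over the mitochondrial limit. The 8913 cells had a median of 1524 UMIs and 4034 peak counts. The labelled cell type, mesothelioma, matched the mesothelial markers: all 12 were detected and together made up 9886 counts per 1000000 UMIs (CPM), led by keratins and CALB2, against 8.74 CPM for 6 immune markers. Of 8 inner ear hair cell markers, ATOH1, POU4F3 and MYO7A were at 0 in the cells compared below, and all 8 summed to 2.83 CPM. The mesothelial sum was about the same in cells with at least 2 PTPRQ UMIs (10016 CPM) and in cells with 0 (9818 CPM). In the high cells immune markers summed to 4.32 CPM, endothelial markers to 24.0 CPM and fibroblast markers to 121 CPM, and in cells with 0 to 9.59, 18.7 and 155 CPM. Podocyte and mesangial markers summed to 122 CPM in the high cells and 121 CPM in cells with 0, and epithelial markers to 1857 CPM in the high cells and 1843 CPM in cells with 0. Of the mesothelial markers, 11 of 12 could be compared at the limits given below. ITLN1, the lectin omentin, was the only one at least 1.5-fold higher, as were 2.8% of all genes compared. It had 21.6 CPM in the high cells and 12.6 CPM in cells with 0 (1.71, 1.20 to 2.41). It was under the limit of 20 CPM in cells with 0, so it entered through the high cells. Short of 1.5-fold, WT1 had a ratio of 1.41 (1.19 to 1.66), BNC1 1.32 (1.18 to 1.47) and UPK3B 1.21 (1.11 to 1.31). CALB2 had 1.14 (1.09 to 1.21) and KRT19 0.958 (0.924 to 0.993). The intervals of the other markers compared included 1.

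PTPRQ transcripts were absent from most cells and spread unevenly over the rest. The cells held 4362 PTPRQ UMIs, or 263 CPM (255 to 271). The 412708 barcodes with 1 to 100 UMIs, which hold free RNA rather than cells, had 101 PTPRQ UMIs, or 125 CPM (101 to 151). Of the cells, 854 (9.58%, 8.98 to 10.2%) had at least 2 PTPRQ UMIs, 1756 had 1 and 6303 (70.7%) had 0. The 854 cells held 59.7% of all PTPRQ UMIs and 12.6% of all UMIs, and the 89 cells with most PTPRQ held 15.4% of its UMIs. Both sets were picked by PTPRQ itself, so large shares follow in part from the grouping and are not a result. Depth alone would have given 648 cells with 2 UMIs and 175 with 3 or 4, where 494 and 238 were observed. A single cell carried up to 20.

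The spread of PTPRQ over cells was wider than sequencing depth alone gives. Its variance was 1.91 times that of Poisson counting at each cell's depth, against a median of 1.07 for the 496 genes within 1.5-fold of its CPM. Of these 496 genes, 4 had a higher value: DISC1FP1 (2.80), FAM155A (1.98), HSPA5 (1.95) and CFB (1.93). HSPA5 encodes the chaperone BiP of the endoplasmic reticulum, and CFB encodes complement factor B. If depth alone set the counts, 8.99 cells would have had 5 to 9 PTPRQ UMIs, and 109 did. Cells with 10 or more numbered 13, against 0.00716 from depth alone. Depth still moved with the count, with a median of 1473 UMIs in cells with 0 and 3441 UMIs in cells with 10 or more. With every cell thinned to 1000 UMIs, the variance was 1.34 times the Poisson value and 4.23% of cells had at least 2.

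**Figure D1:**
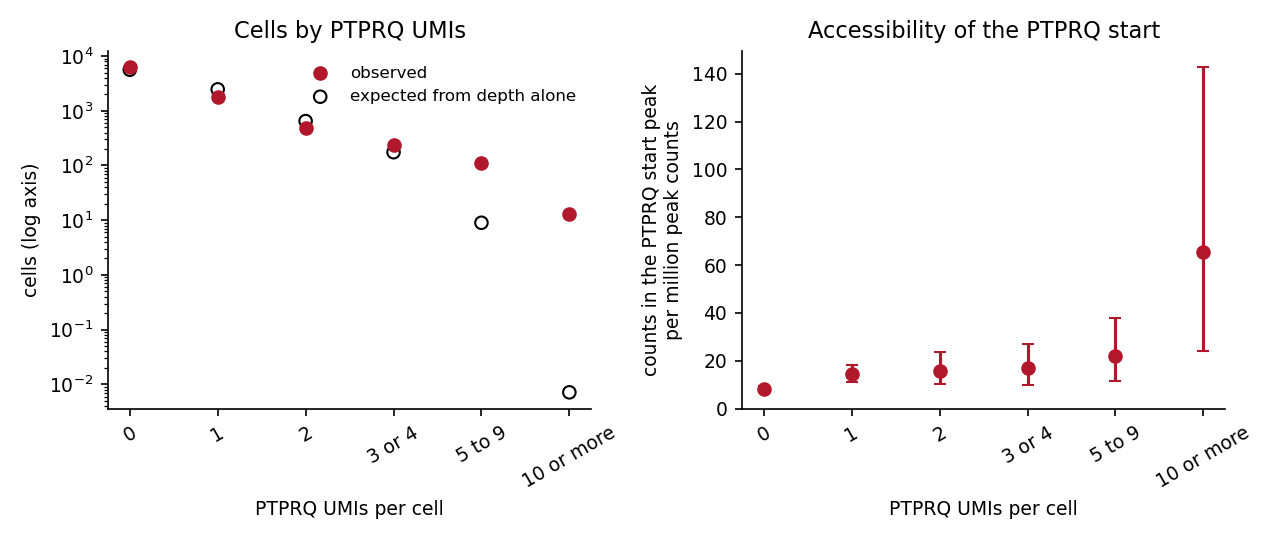
The left panel plots the number of cells (log axis) by PTPRQ UMIs per cell, filled for the cells observed and open for the number that depth alone gives. The right panel plots counts in the peak over the PTPRQ start per 1000000 peak counts, with exact 95% intervals. Observed cells exceed the depth curve from 3 or 4 UMIs upward, and the start peak runs between 8.08 at 0 UMIs and 65.6 at 10 or more.

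Chromatin at the PTPRQ start was more open in cells with more PTPRQ RNA. The peak over the start, chr12:80443845-80444683, held 8.08 counts per 1000000 peak counts (peak CPM) in cells with 0 PTPRQ UMIs, 14.5 with 1, 15.9 with 2, 16.9 with 3 or 4, 21.9 with 5 to 9 and 65.6 (24.1 to 143) with 10 or more. The classes with 1 and with 2 UMIs, on either side of the limit that defines the high group, had overlapping intervals (11.3 to 18.4 and 10.2 to 23.5). ADGRL3, which encodes the adhesion receptor latrophilin 3, ran the same way, at 42.1, 73.7, 86.6, 189, 363 and 848 CPM over these 6 classes. HMGA2, an architectural chromatin protein of embryonic and mesenchymal cells, ran mostly the other way, at 186, 125, 89.5, 129, 72.1 and 18.4 CPM. The median share of mitochondrial UMIs lay between 13.8% in cells with 0 and 16.9% in cells with 10 or more, and its part in these values was not tested.

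Of the 52 peaks of the locus, the one over the gene start differed most clearly between cells with at least 2 PTPRQ UMIs and cells with 0. It held 120 counts in the 854 high cells, or 18.7 peak CPM, and 263 counts in the 6303 cells with 0, or 8.08 peak CPM, a ratio of 2.31 (1.67 to 3.16). It was open, with at least 1 count, in 7.03% of the high cells and in 2.21% of cells with 0. Within the chromatin clusters described below the ratio was 1.68. With cells with 0 weighted to the chromatin depth of the high cells it was 2.49. Among the 1592 cells with at most 10% mitochondrial UMIs it was 0.915 (0.103 to 3.86), an interval too wide to show a difference. The high cells were deeper, with medians of 2136 UMIs and 5614 peak counts, against 1473 UMIs and 3873 peak counts in cells with 0.

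Of the 6 locus peaks with at least 200 counts over both groups, the start peak was the only one at least 1.5-fold higher in the high cells, beside a background of 3.63% of all 49841 peaks compared this way. None of the 6 was 1.5-fold lower (8.42% of all peaks). The ratio of the peak at chr12:80186405-80187311, 257 kb upstream, was 1.32 (0.931 to 1.84). The peak at chr12:80268698-80269603 had 1.05 (0.701 to 1.54). The next pair lies directly before the start, with 1.18 (0.683 to 1.95) at chr12:80441636-80442424 and 1.31 (0.897 to 1.86) at chr12:80442601-80443338. The peak in the gene body, chr12:80551614-80552496, had 0.694 (0.361 to 1.23). The intervals of these 5 peaks included 1, so a difference was not detectable at this depth. For chr12:80268698-80269603 the ratio was 1.75 (1.06 to 2.76) in cells thinned to 1000 UMIs, 3.04 (1.16 to 7.16) at a mitochondrial limit of 10% and 0.776 (0.403 to 1.37) without cluster 4. For chr12:80186405-80187311 it was 1.65 (1.05 to 2.55) in cells with at least 2000 UMIs and peak counts. Whether these peaks differ from the start peak was not tested.

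At a floor of 50 counts, 26 locus peaks could be compared. Of these, 10 (38.5%) were at least 1.5-fold higher in the high cells, beside 12.9% of all 136704 peaks, and 3 (11.5%) were at least 1.5-fold lower, beside 16.7% of all. The interval excluded 1 for 4 of the 10 and for 1 of the 3. Among the higher ones, chr12:80269904-80270648 had a ratio of 1.86 (1.01 to 3.29) and chr12:80321508-80322360 had 2.60 (1.03 to 6.14). The 3 lower ones all lay in the gene body more than 100 kb from the start. The clearest was chr12:80580001-80580889, 136 kb into the gene, with 9 counts in the high cells and 121 in cells with 0 (0.377, 0.109 to 0.967). These peaks were named after their values had been seen.

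**Figure D2:**
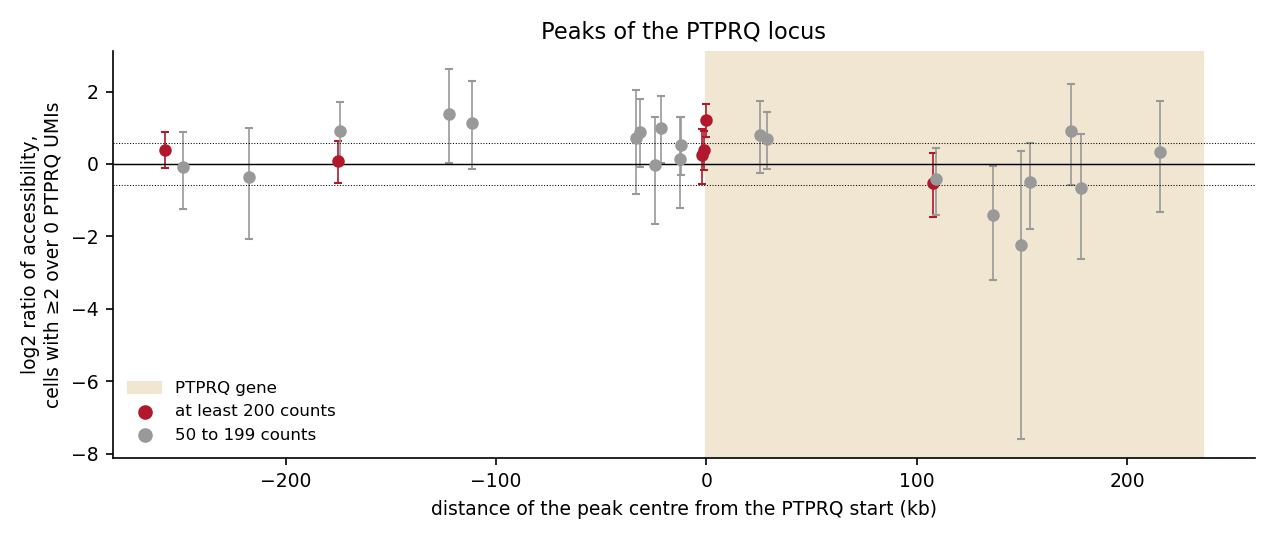
Each point is a peak with at least 50 counts, placed by the distance of its centre from the PTPRQ start in kb, with the log2 ratio of its accessibility in cells with at least 2 over cells with 0 PTPRQ UMIs and its exact 95% interval. The shaded span is the gene and dotted lines mark 1.5-fold. The start peak (2.31-fold) is the highest of the red points, which have at least 200 counts, and 6 of the points between 100 and 200 kb into the gene lie below 0.

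Summed by stretch, accessibility was higher in the high cells on both sides of the start but lower in 1 part of the gene body. All 52 peaks together held 155 peak CPM in the high cells and 117 in cells with 0, a ratio of 1.33 (1.20 to 1.46). The bounds of the stretches were drawn after the values had been seen. The 4 peaks in the annotated interval of PTPRQ, the start peak included, had 1.58 (1.28 to 1.95). The stretch more than 100 kb upstream had 1.35 (1.12 to 1.62), that from 100 to 1 kb upstream 1.42 (1.17 to 1.71), and the gene body up to 100 kb 1.58 (1.08 to 2.26). Between 100 and 160 kb into the gene, 8 peaks held 14.3 peak CPM in the high cells and 23.1 in cells with 0, which is 1.61-fold lower (1.19 to 2.24). Beyond 160 kb the ratio was 1.55 (1.12 to 2.10). Farther along chromosome 12 the ratios were smaller, at 1.16 between 0.25 and 1 Mb from the gene and 1.13 between 1 and 5 Mb. They were 1.06 between 5 and 20 Mb and 1.04 beyond. The intervals of these ratios all lay above 1, so higher accessibility in the high cells was not confined to the locus. Chromosome 12 as a whole had 1.05, and the other autosomes had ratios between 0.847 (chromosome 14) and 1.13 (chromosome 13).

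The same cells and counts can be read from chromatin to RNA, which describes them again and adds no independent support. Cells with a count in a peak had more PTPRQ than cells without one, with an interval above 1, for 24 of the 52 peaks, and less, with an interval below 1, for 2. The highest ratios were 2.56 (1.84 to 3.48) for chr12:80636537-80637307, 2.52 (1.84 to 3.37) for chr12:80490309-80491266 and 2.35 (1.69 to 3.20) for chr12:80413372-80414156. They rest on 28, 31 and 30 cells with a count. The 270 cells with a count in the start peak had 525 CPM of PTPRQ, and the cells without one had 253 CPM, a ratio of 2.08 (1.85 to 2.33). Of these 270 cells 22.2% had at least 2 PTPRQ UMIs, against 9.19% of the rest. The 72 cells with a count in the peak 136 kb into the gene had 107 CPM, and the rest had 265 CPM (0.405, 0.244 to 0.634). The lowest ratio, 0.219 (0.0597 to 0.561), was that of chr12:80593581-80594412, over 30 cells. Cells with the start peak open were deeper and had a median of 1911 UMIs and 7832 peak counts, against 1515 and 3958 without it. A CPM is scaled to each cell's UMIs, and the part of depth in these ratios was not tested.

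The list of genes annotated within 1 Mb holds 20, PTPRQ included, and most of its neighbours had few or no UMIs. OTOGL, which encodes the inner ear protein otogelin-like and starts 235 kb upstream, had 1 UMI in the high cells and 2 in cells with 0. The myogenic factors MYF5 and MYF6, downstream, had 0 in both. AC074031.1, which starts 149 kb inside PTPRQ, had 14 UMIs in the high cells (6.72 CPM) and 22 in cells with 0 (1.95 CPM), 3.44-fold higher (1.63 to 7.03). Because it lies within PTPRQ and the sources used here do not say how strand was used in counting, its reads cannot be told apart from those of PTPRQ. The peak over its annotated start, chr12:80593581-80594412, had 2 counts in the high cells and 48 in cells with 0 (0.211, 0.00513 to 1.29). AC027288.3, 941 kb upstream, had 169 CPM in the high cells and 93.3 CPM in cells with 0 (1.81, 1.60 to 2.05). PAWR, a pro-apoptotic regulator, had 474 CPM in the high cells and 380 CPM in cells with 0 (1.25, 1.16 to 1.34), and PPP1R12A, the targeting subunit of myosin phosphatase, had 269 CPM in the high cells and 250 CPM in cells with 0 (1.08, 0.981 to 1.18).

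Beyond the locus, PPP2R2B, ADGRL3 and ITGB8 had the highest ratios in cells rich in PTPRQ, and RSAD2 had the lowest. The high cells had 33 genes (0.481% of the 6864 compared) at 2-fold or more above cells with 0, and 21 (0.306%) at 2-fold or more below. The comparison took in genes that reached 100 UMIs in the groups combined and 20 CPM in the higher one. In cells with 0, 18 of the 33 higher genes were under 20 CPM, so they entered through the high cells, and 12 of the 21 lower genes were under it in the high cells. Within chromatin clusters 11 genes were at least 2-fold higher and 5 at least 2-fold lower. Without cluster 4 the number at least 2-fold higher was 18, an alternative chosen after seeing the data.

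PPP2R2B, which encodes a brain-enriched subunit that directs the phosphatase PP2A, had the highest ratio, with 91.2 CPM in the high cells and 17.7 CPM in cells with 0 (5.16, 4.21 to 6.33). ADGRL3 followed with 182 CPM in the high cells and 42.1 CPM in cells with 0 (4.32, 3.76 to 4.96). ITGB8, the integrin chain that with the αV chain activates latent TGF-beta, had 86.4 CPM in the high cells and 21.5 CPM in cells with 0 (4.02, 3.30 to 4.89). These 3 genes also lead chromatin cluster 4, where PTPRQ was highest. FHIT, a nucleotide hydrolase at a common fragile site, had a ratio of 3.95 (2.82 to 5.50), and CDH12, a type II cadherin, had 3.21 (2.31 to 4.43). TRERF1, a zinc finger regulator of transcription, had 3.16, and KCNH5, a voltage-gated potassium channel, had 3.01. The ratio of MUC16, the mucin that carries the CA125 antigen, was 2.92, and that of MAPK10, the kinase JNK3, was 2.70. LONRF2 had 2.63, the adaptor SHC3 2.51, CSMD3 2.51, AC005580.1 2.46, the phospholipase PLCB1 2.43 and AC098617.1 2.41. CSMD3, a giant transmembrane protein with CUB and sushi domains, had 646 CPM in the high cells and 257 CPM in cells with 0 (95% interval of the ratio 2.35 to 2.68). Of the 15 genes named here 10, PPP2R2B among them, were under 20 CPM in cells with 0 and entered through the high cells.

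Without cluster 4, 1 of these 15 genes, KCNH5 (2.29, 1.76 to 2.96), was at least 2-fold higher in the high cells, and 9 were at least 1.5-fold higher. There PPP2R2B had a ratio of 1.73 (1.12 to 2.60), ADGRL3 1.42 (1.04 to 1.90), ITGB8 1.45 (0.972 to 2.12), SHC3 1.38 (0.742 to 2.41) and CDH12 0.989 (0.457 to 1.91). Compared within chromatin clusters, all 15 genes were still at least 1.5-fold higher in the high cells and 9 were at least 2-fold higher, led by PPP2R2B (2.70) and FHIT (2.69). Inside cluster 4, PPP2R2B was 3.51-fold higher (2.61 to 4.78), ITGB8 3.48-fold (2.55 to 4.80) and ADGRL3 2.71-fold (2.24 to 3.28). In cluster 2 the ratio of ADGRL3 was 1.19 (0.628 to 2.13), that of PPP2R2B 1.05 (0.422 to 2.31) and that of ITGB8 0.607 (0.186 to 1.54). PPP2R2B was higher in the high cells of cluster 5 (2.90, 1.01 to 7.91) and of cluster 6 (12.4, 3.63 to 39.0), the second on 6 UMIs in 22 high cells and 9 UMIs in 498 cells with 0. For ADGRL3 and ITGB8 the intervals of all clusters but cluster 4 included 1. Whether clusters differ in these ratios was not tested. CSMD3 was higher in the high cells with an interval above 1 in clusters 1 to 6, between 1.34 (1.11 to 1.61) in cluster 2 and 2.33 (2.07 to 2.62) in cluster 4.

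**Figure D3:**
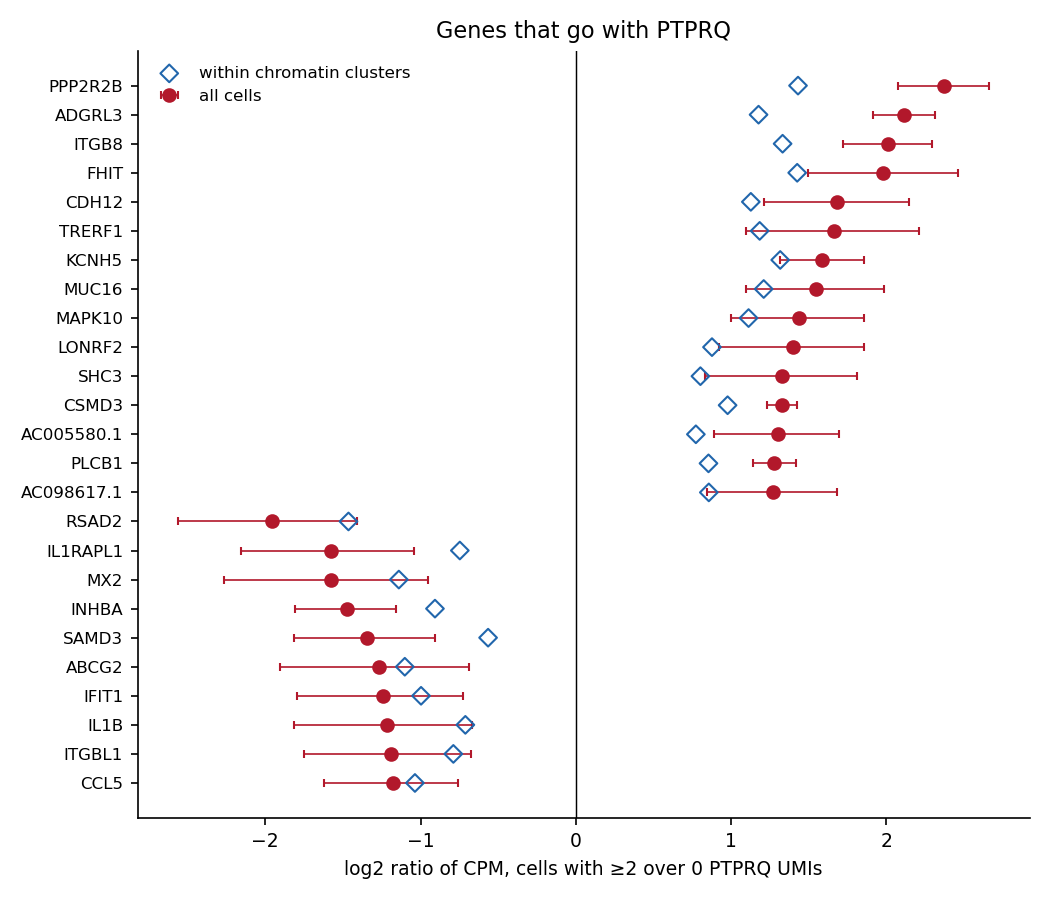
Log2 ratios of CPM, cells with at least 2 over cells with 0 PTPRQ UMIs, for the 15 highest and 10 lowest genes, with exact 95% intervals (red). Open diamonds give the same ratio within chromatin clusters. The diamonds of the 15 higher genes lie between 1.71-fold and 2.70-fold, nearer to 0 than the red points.

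The starts of these genes were then read in the chromatin, as had been done for PTPRQ. The RefSeq promoter table (GRCh38.p14) matched 19 of the 25 named genes and has no entry for PTPRQ. The sequences printed are the 250 bases before the start, on the strand of the gene, for the 4 higher genes whose start peak bears most on the comparison with PTPRQ. Capitals mark matches to the searched motifs on either strand. The TEAD motif was searched as GGAATG. The motif of the dimeric factor AP-1 was searched as TGANTCA. For the RUNX factors the letters were TGTGGT. For the TATA box, bound by TBP, they were TATAAA. For the E-box of basic helix-loop-helix factors they were CACGTG. Of 35116 promoter windows, 11.9% held the TEAD motif, 6.57% AP-1, 11.0% RUNX, 10.7% TATA and 6.34% the E-box, each in the same 250-base window.
PPP2R2B, chr5:146878758-146879007, minus strand: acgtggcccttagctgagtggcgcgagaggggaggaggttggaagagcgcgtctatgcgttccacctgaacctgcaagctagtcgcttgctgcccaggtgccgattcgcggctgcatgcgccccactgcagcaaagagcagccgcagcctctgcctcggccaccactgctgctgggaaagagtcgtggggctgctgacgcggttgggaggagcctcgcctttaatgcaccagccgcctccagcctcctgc
ITGB8, chr7:20330650-20330899, plus strand: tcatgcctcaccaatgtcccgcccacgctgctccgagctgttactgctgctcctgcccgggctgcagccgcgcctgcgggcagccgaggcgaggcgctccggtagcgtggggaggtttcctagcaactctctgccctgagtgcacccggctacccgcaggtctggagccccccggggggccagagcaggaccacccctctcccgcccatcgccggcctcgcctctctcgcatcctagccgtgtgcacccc
FHIT, chr3:61251453-61251702, minus strand: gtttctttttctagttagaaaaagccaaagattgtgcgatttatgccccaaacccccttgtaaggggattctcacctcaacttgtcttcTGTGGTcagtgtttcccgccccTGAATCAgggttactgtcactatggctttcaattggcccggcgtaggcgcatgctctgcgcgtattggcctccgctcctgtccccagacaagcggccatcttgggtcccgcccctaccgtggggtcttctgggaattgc
TRERF1, chr6:42452225-42452474, minus strand: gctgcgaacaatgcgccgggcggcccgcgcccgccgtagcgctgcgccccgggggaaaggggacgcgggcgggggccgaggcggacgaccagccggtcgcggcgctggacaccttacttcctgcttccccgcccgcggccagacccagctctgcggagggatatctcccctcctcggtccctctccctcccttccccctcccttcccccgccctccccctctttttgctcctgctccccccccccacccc

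For most of these starts that lie in a peak, the interval of the accessibility ratio included 1. The peak over the ITGB8 start, the best covered of the 4, held 37.3 peak CPM in the high cells and 35.1 in cells with 0 (1.06, 0.866 to 1.30), beside a 4.02-fold ratio of RNA. The printed PPP2R2B start, 1 of 2 in RefSeq, had a ratio of 1.06 (0.585 to 1.83) over 190 counts. The printed FHIT start, the only 1 of the 4 sequences with a motif match (1 RUNX and 1 AP-1), had 1.27 (0.892 to 1.77). The other FHIT start in RefSeq, with 3 TEAD matches, had 8 counts in the high cells and 18 in cells with 0 (2.25, 0.506 to 8.06). A start of MUC16 had 7 counts in the high cells and 50 in cells with 0 (0.709, 0.160 to 2.17), and the KCNH5 start had 1.05 (0.733 to 1.48). TRERF1 was the only one of these with an interval that excluded 1, with 14.2 peak CPM in the high cells and 8.73 in cells with 0 (1.62, 1.14 to 2.28). No match says only that these letters are not in the window. For 2 of the lower genes, INHBA and RSAD2, the peaks over the first start in RefSeq had ratios of 0.785 (0.464 to 1.26) and 0.882 (0.609 to 1.25). The other RSAD2 start in RefSeq had 22 counts in the high cells and 160 in cells with 0 (0.696, 0.334 to 1.31).

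Among the 10 genes with the lowest ratios were interferon-induced genes and INHBA of the mesenchymal list, beside genes on neither list. RSAD2, the antiviral protein viperin, had 13.4 CPM in the high cells and 52.2 CPM in cells with 0, 3.89-fold lower (2.66 to 5.90). MX2, a GTPase that restricts viruses, was 2.98-fold lower (1.94 to 4.81), IFIT1 2.36-fold and the chemokine CCL5 2.26-fold. INHBA, the subunit of activin A, had 40.8 CPM in the high cells and 113 CPM in cells with 0, 2.78-fold lower (2.23 to 3.50). IL1RAPL1, a synaptic member of the interleukin 1 receptor family, was 2.98-fold lower, SAMD3 2.54-fold, the drug efflux pump ABCG2 2.41-fold, the cytokine IL1B 2.32-fold and ITGBL1 2.28-fold. Of these 10 genes 7 were under 20 CPM in the high cells, so they entered through cells with 0. Within chromatin clusters 4 of these 10 genes were still at least 2-fold lower, namely RSAD2, MX2, ABCG2 and CCL5. At a mitochondrial limit of 10% also 4 of the 10 were at least 2-fold lower, RSAD2, MX2, IFIT1 and CCL5. There the ratio of ITGBL1 was 0.830 (0.293 to 1.92), of IL1RAPL1 0.636 (0.226 to 1.45), of SAMD3 0.577 (0.226 to 1.23), of INHBA 0.570 (0.313 to 0.961), of IL1B 0.640 (0.168 to 1.74) and of ABCG2 0.616 (0.162 to 1.67). Of the 15 higher genes 10 were at least 2-fold higher at that limit.

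Gene lists were read with calls at 1.5-fold. The lists nearest to PTPRQ in structure or function had few genes compared, so an absence of calls there says nothing about their members. The background was 192 of 6864 genes higher (2.8%) and 148 lower (2.16%), with a median log2 ratio of -0.01. Of 19 other receptor-type tyrosine phosphatases, 10 could be compared, with a list median of 0.23. PTPRD (27.8 CPM in the high cells, 15.2 CPM in cells with 0, ratio 1.83) and PTPRH (20.2 CPM in the high cells, 11.8 CPM in cells with 0, ratio 1.71) were higher. Both were under 20 CPM in cells with 0, so they entered through the high cells. Of 27 phosphoinositide phosphatases 9 were compared and none was called. Of 15 genes of class I PI3-kinase and AKT signalling 10 were compared and none was called, with a median of 0.25. Of 41 genes of the hair bundle and inner ear only 6 were abundant enough, and none was called. The list median was -0.05, and its compared members went both ways. MYO3A, a motor protein of stereocilia, had 83.1 CPM in the high cells and 59.3 CPM in cells with 0 (1.40, 1.18 to 1.66). MYO6, another myosin on the list, had 61.0 CPM in the high cells and 79.2 CPM in cells with 0 (0.769, 0.634 to 0.928). The intervals of the other compared members included 1.

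The interferon list gave the most calls. Of its 20 genes 17 were compared, and 9 were lower in the high cells with none higher, at a median log2 ratio of -0.71. Beside MX2 and IFIT1 these were MX1 (38.9 CPM in the high cells, 84.7 CPM in cells with 0), IFIT2, IFIT3, ISG15, DDX58, XAF1 and IFI6, between 1.63-fold and 2.18-fold lower. All 9 are induced by type I interferon. MX2, IFIT1, IFIT2 and XAF1 were under 20 CPM in the high cells, so they entered through cells with 0. The whole list summed to 806 CPM in the high cells, 1173 CPM in cells with 0 and 1164 CPM in free RNA barcodes, and the part of free RNA in the difference was not tested. Of 16 mesenchymal genes 11 were compared and 4 were lower: INHBA, HMGA2 (97.0 CPM in the high cells, 186 CPM in cells with 0), the intermediate filament gene VIM (396 CPM in the high cells, 639 CPM in cells with 0) and the matrix gene TGFBI (70.6 CPM in the high cells, 106 CPM in cells with 0).

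For the YAP/TEAD targets and the lists after them, the background was again 2.8% of genes compared higher and 2.16% lower. Of 22 YAP/TEAD targets 16 were compared, with a median log2 ratio of 0.03, and only AXL, a receptor tyrosine kinase, was called, at 75.9 CPM in the high cells and 123 CPM in cells with 0 (1.62-fold lower, 1.37 to 1.92). NT5E, with a ratio of 0.667 (0.483 to 0.902), lay just inside the limit and was not called. Of 14 genes of ERK output 6 were compared, and PHLDA1 (35.0 CPM in the high cells, 63.5 CPM in cells with 0) and the AP-1 member FOSL1 (44.6 CPM in the high cells, 75.4 CPM in cells with 0) were lower. Of the latrophilins and their ligands 6 of 11 were compared, and ADGRL3 and TENM4, one of the teneurins that bind latrophilins (35.5 CPM in the high cells, 18.6 CPM in cells with 0, ratio 1.91), were higher. TENM4 was under 20 CPM in cells with 0 and entered through the high cells. The teneurin TENM3 had 813 CPM in the high cells and 580 CPM in cells with 0 (1.40), and TENM2 had 1187 CPM in the high cells and 1165 CPM in cells with 0 (1.02). PPP2R2B was the only 1 of 11 compared PP2A regulatory subunits past 1.5-fold. At 17.7 CPM in cells with 0 it too was under 20 CPM there and entered through the high cells. PPP2R2D had 1.36 (0.994 to 1.83) and PPP2R5E had 0.746 (0.634 to 0.874). Of the cycle genes, none of 28 compared G2/M genes and 1 of 14 S-phase genes was called, the histone mRNA binding protein SLBP (25.0 CPM in the high cells, 38.9 CPM in cells with 0). None of 11 housekeeping genes was called.

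Genes higher in PTPRQ-rich cells were long. Those at least 2-fold higher had a median RefSeq length of 174 kb, against 38.7 kb for those at least 2-fold lower and 43.6 kb for all genes compared, with lengths known for 30 of 33, 19 of 21 and 6627 of 6864. Of genes under 10 kb 0.866% were at least 1.5-fold higher, of those from 10 to 30 kb 1.03%, from 30 to 100 kb 2.24%, from 100 to 300 kb 4.10% and over 300 kb 11.8%. With cells with 0 weighted to the depth of the high cells the share over 300 kb was 12.9%. On a list of 26 very long genes, 11 were compared and 3 were higher, FHIT and PTPRD among them. FHIT and PTPRD were under 20 CPM in cells with 0 and entered through the high cells.

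Across 7 chromatin clusters, drawn from peaks alone, PTPRQ varied 5.84-fold. Cluster 4 (1482 cells) had 640 CPM (610 to 672), and its leading genes were PPP2R2B, ADGRL3, ITGB8, CDH12 and FHIT. Cluster 5 (673 cells, led by ITLN1) had 320 CPM, cluster 7 (104 cells) 314 CPM, cluster 2 (1808 cells, led by CLSTN2) 247 CPM and cluster 3 (1557 cells, led by CYP17A1) 226 CPM. The intervals of clusters 5 and 7 overlap (289 to 354 and 238 to 407 CPM), as do those of clusters 2 and 3 (231 to 264 and 209 to 245 CPM). Cluster 1 (2673 cells, led by IL1RAPL1, SAMD3 and HMGA2) had 118 CPM (109 to 128), and cluster 6 (616 cells, led by INHBA) had 110 CPM (92.6 to 129). The levels of clusters 1 and 6 are not above the 125 CPM of free RNA. Cluster 1 held 81 cells with at least 2 PTPRQ UMIs, up to 8 in a cell, with a variance of 1.39 times the Poisson value. The share of free RNA within a cell was not estimated, and its part in these values was not tested. No cluster was read as a line or a treatment. Clusters redrawn from the cells with at most 10% mitochondrial UMIs differed 1.79-fold, and the cause was not tested.

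The median cell of cluster 4 had 1459 UMIs and 4162.5 peak counts, and that of cluster 1 had 1513 UMIs and 3691 peak counts. The part of depth in the order of the clusters was not tested. Of the cells of cluster 4 23.6% (21.5 to 25.9%) had at least 2 PTPRQ UMIs, and of those of cluster 1 3.03% (2.41 to 3.75%). With cells thinned to 1000 UMIs these shares were 12.1% and 1.12%. Cluster 4 held 41.0% of the high cells and 11.8% of the cells with 0, and cluster 1 held 9.48% of the high cells and 35.1% of the cells with 0. Inside cluster 4 PTPRQ was uneven too, with a variance of 1.99 times the Poisson value, and its cells reached 20 UMIs.

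The start peak mostly followed the RNA across clusters and the distal gene body did not. The start peak held 18.0 peak CPM (14.1 to 22.6) in cluster 4 and 4.67 (3.19 to 6.59) in cluster 1, and the other clusters lay between them. Cluster 6, lowest in RNA, had 8.38 (4.79 to 13.6), which is not below cluster 1. The 8 peaks from 100 to 160 kb into the gene held 22.5 peak CPM in cluster 4, 24.6 in cluster 1 and 32.8 in cluster 6, where PTPRQ was lowest. Their lowest value, 14.6, was in cluster 5. Because the peaks of the locus belong to those that drew the clusters, clusters were also drawn without chromosome 12. This gave 6 clusters with PTPRQ between 648 CPM and 105 CPM and the start peak between 18.1 and 5.74 peak CPM. The cluster at 105 CPM had 7.34 peak CPM in the start peak, and the value of 5.74 was that of the cluster at 117 CPM. In the cluster highest in PTPRQ, 1325 of the 1422 cells were cells of cluster 4.

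**Figure D4:**
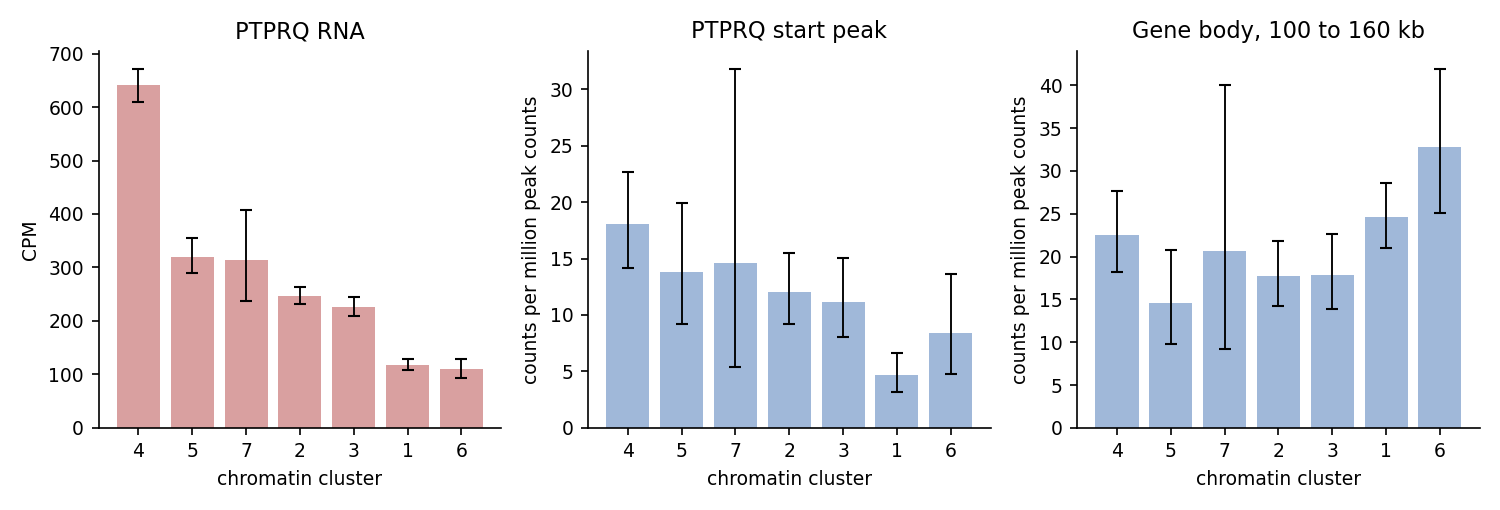
PTPRQ RNA (CPM), counts in the start peak and counts in the gene body 100 to 160 kb from the start (both per 1000000 peak counts) in the 7 chromatin clusters, ordered by PTPRQ. Bars start at 0 and carry exact 95% intervals. Cluster 4 (640 CPM) is highest in the first and second panels, and cluster 6 (110 CPM) is highest in the third.

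At a finer grain, cells were cut into 50 groups by their chromatin outside chromosome 12, with 96 to 321 cells each. PTPRQ ranged between 34.3 and 1060 CPM over these groups, with a median of 244 CPM. Correlations over them, on log2(CPM + 10), are descriptions: the groups share 1 pool and 1 pair of libraries and are not independent samples. The start peak went with PTPRQ at a Pearson r of 0.74 (0.70 without the 2 groups farthest from the median level), the gene body from 100 to 160 kb at -0.33, the median UMIs of a group at -0.18 and its median mitochondrial share at 0.27.

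Over the 50 groups the gene closest to PTPRQ was COBLL1. This gene, related to the actin nucleator cordon-bleu, had the highest r of 6574 genes (0.90, or 0.88 without the 2 groups), with levels between 276 and 962 CPM. WNT2B, a Wnt ligand, followed with 0.88, and among the next were CSMD3 (0.81), the neighbour AC027288.3 (0.81), PPP2R2B (0.78), the branched-chain aminotransferase BCAT1 (0.78), the transcription factors NFIA (0.76) and TCF7L2 (0.76) and the tetraspanin TSPAN3 (0.76). ADGRL3 and ITGB8 had 0.75 and 0.72. At the other end stood VIM (-0.82), the potassium channel KCNQ5 (-0.79), BTBD11 (-0.78), the actin crosslinker ACTN1 (-0.78) and the splicing factor RBM25 (-0.76), and HMGA2 had -0.67. In all 21 genes had an r of at least 0.7 and 23 of at most -0.7, around a median of -0.05. In the comparison of single cells COBLL1 had 825 CPM in the high cells and 482 CPM in cells with 0 (1.71, 1.62 to 1.81), and WNT2B had 202 CPM in the high cells and 101 CPM in cells with 0 (1.99, 1.78 to 2.23).

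**Figure D5:**
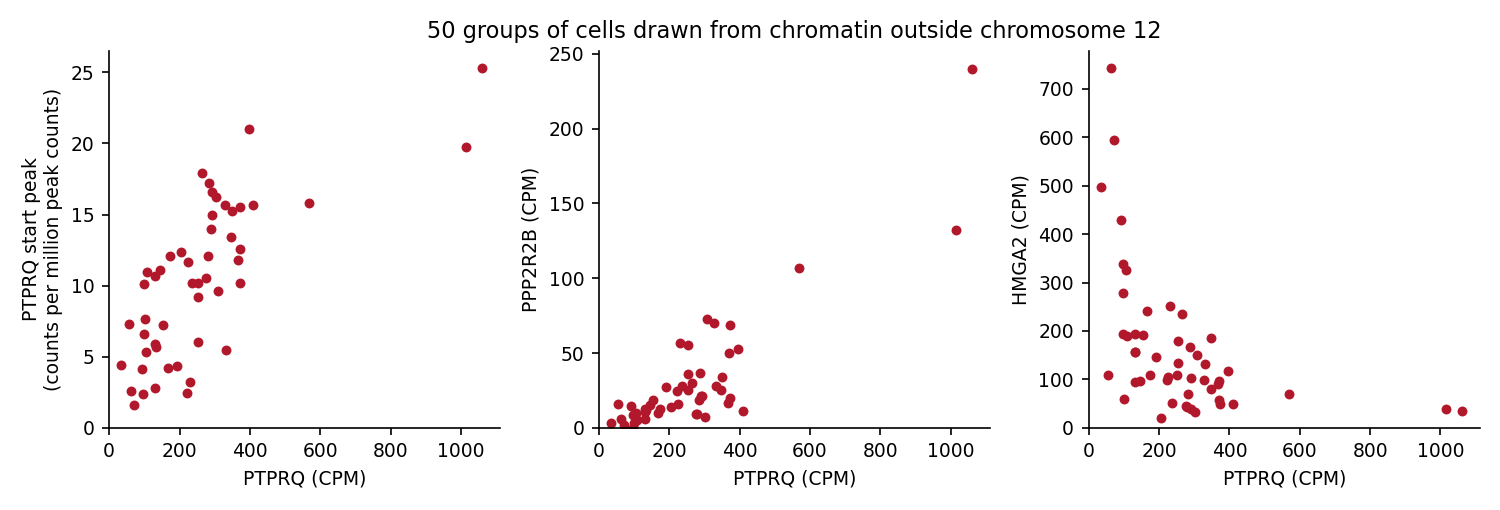
Each point is 1 of 50 groups of cells drawn from chromatin outside chromosome 12, with PTPRQ in CPM on the horizontal axis and, from left to right, counts in the PTPRQ start peak per 1000000 peak counts, PPP2R2B in CPM and HMGA2 in CPM. The group highest in PTPRQ (1060 CPM) is also highest in the start peak and in PPP2R2B, and groups rich in HMGA2 lie at low PTPRQ.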

How the data were processed

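RNA and accessible chromatin were measured in 1 pool of hashtagged NCI-H226 and NCI-H226_CL3 cells. The authors deposited 1 matrix of raw counts, UMIs per gene and transposition counts per peak, made with Cell Ranger ARC 2.0.0 per the file headers. The submitters' processing notes also name Cell Ranger 2.0.0, ArchR 1.0.3, MACS2 and GRCh38.p10. How strand was used in counting is not stated by these sources. The deposited intervals of genes and peaks were used as positions. No column of another sample was present.

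Cells were called by the limits given in the report. Counts were summed over cells with at least 2 and with 0 PTPRQ UMIs and scaled to all UMIs or peak counts. Ratios have exact conditional binomial intervals, CPM exact Poisson intervals and shares Clopper-Pearson intervals. For peaks every 2 counts were taken as 1 event. With 1 sample, a gene or peak was called when its ratio passed the stated fold, whatever its interval. The intervals of all genes called excluded 1. Genes named are the 15 highest and 10 lowest ratios, the 10 highest and 5 lowest correlations over the 50 groups, genes within 1 Mb and list members past 1.5-fold. A few genes that this rule or the lists name are not reported here. Members and lists were chosen with earlier results of these data known.

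Peaks open in at least 20 cells were binarised, weighted by inverse frequency and reduced to 30 components, dropping those correlated over 0.75 with depth. Leiden clusters (15 neighbours, resolution 0.5) followed, with settings chosen after cluster sizes under several settings had been seen. The 50 groups came from k-means without chromosome 12. Scrublet marked no cell at its automatic threshold and so did not work. As an alternative the 8% of cells with the highest scores were left out. Alternatives covered thinning, depth weighting, limits on cells and counts, clusters and scaling. The scripts were tested on simulated data. Python 3.11.15, numpy 2.4.6, scipy 1.17.1, pandas 2.3.3, scikit-learn 1.9.0, scanpy 1.11.5, leidenalg 0.10.2, matplotlib 3.10.9 and R 4.3.3 were used, with edgeR 4.0.16 and DESeq2 1.42.0 for scaling factors only. No count model was fitted because 1 sample has no replicates.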

Additional observations from a re-analysis of the deposited data

Results flagged for a closer look

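PTPRQ was also found in barcodes that the comparisons leave out. Barcodes with 1 to 100 UMIs, which hold free RNA, had 125 CPM of PTPRQ (101 to 151), from 101 UMIs. Barcodes past both count minimums but over 20% mitochondrial UMIs had 302 CPM (287 to 317), from 1533 UMIs, against 263 CPM in the cells. Both lie above the limit that a count of 0 allows.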

How the results depend on the processing

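The number of genes at least 2-fold higher in cells with at least 2 PTPRQ UMIs (33) was 111 in cells thinned to 1000 UMIs, 52 with cells with 0 weighted to the depth of the high cells, 97 with at least 3 UMIs, 7 with at least 1 UMI, 19 at a mitochondrial limit of 10%, 18 without cluster 4, 11 within clusters and 532 with at least 10 UMIs and no CPM floor. The number at least 2-fold lower (21) was 217 thinned, 35 weighted, 73 with at least 3 UMIs, 0 with at least 1 UMI, 53 at the 10% limit, 62 with floors of 2000 UMIs and peak counts, 10 with floors of 500, 5 within clusters and 1063 with no CPM floor. Locus peaks at least 1.5-fold higher (1) numbered 2 thinned, weighted, with at least 1 UMI and without cluster 4, 3 with floors of 500, and 10 at 50 counts per peak. Those at least 1.5-fold lower (0) numbered 2 thinned and weighted, 1 with at least 3 UMIs, with floors of 500 and within clusters, and 3 at 50 counts. At the 10% limit and with floors of 2000 no locus peak reached the count minimum, so no number was obtained. The ratio of all locus peaks (1.33) was 1.18 with at least 1 UMI, 1.58 at the 10% limit, 1.19 without cluster 4 and 1.18 within clusters.

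The PTPRQ level (263 CPM) was 252 CPM at the 10% limit, 273 CPM with floors of 2000 and 192 CPM without cluster 4. The share of cells with at least 2 UMIs (9.58%) was 4.23% thinned, 7.29% at the 10% limit, 17.6% with floors of 2000 and 5.58% with floors of 500. The variance over Poisson (1.91) was 1.34 thinned, 1.42 at the 10% limit, 3.34 with floors of 2000 and 1.46 with floors of 500. The range over clusters (5.84-fold) was 9.26-fold at resolution 1.0, 1.79-fold at the 10% limit, 11.5-fold with floors of 2000, 4.03-fold with floors of 500 and 8.95-fold without the highest Scrublet scores. Direction turned for the start peak at the 10% limit (0.915) and for CDH12 without cluster 4 (0.989). The cause was not tested in any of these. TMM and median-of-ratios scaling moved the median of all genes by 0.02 and 0.03 on the log2 scale. Leaving out cluster 4 was chosen after seeing the data. No paired analysis was possible because the pool is 1 sample. The 10% limit leaves 116 high cells and 1142 cells with 0, so depth limits what it can show.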
